A study of Mus musculus with 7 samples.

Results

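Serotonin receptor genes were followed in mouse whole neocortex by taking, from the deposited array values, each probe set annotated with exactly one of 10 symbols: Htr1a, Htr1b, Htr1d, Htr1f, Htr2a, Htr2c, Htr3a, Htr4, Htr5a and Htr7. All 10 had 1 probe set each, among 19936 genes with a probe set of a single symbol. The family was chosen by the lower CKO signal of Htr2a and Htr3a in this same comparison, so the CKO and WT values of the members are given as a description, and no test on them is used as support. By brightness, 8 of the 10 lay above the 25th percentile of all probe sets (a mean log2 signal of 6.84). Htr7 and Htr2c lay below it and are called dim here. A mean above this limit does not show that a receptor is expressed in the neocortex. The members nearest that limit were Htr1d, at a mean of 6.91 just above it, and Htr7, at 6.60 below it.

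The arrays held 4 CKO samples, with a genotype given as COUP-TFI with Nex-Cre, and 3 wild-type (WT) samples, all of strain C57BL/6 neocortex. COUP-TFI is the nuclear receptor encoded by Nr2f1, and Nex-Cre is Cre recombinase expressed from the Neurod6 locus, which is active in postmitotic glutamatergic neurons of the cortex and not in cortical interneurons, glia or vessels. The labels do not state the age of the mice, the alleles in full or whether each array was a separate animal, so the spread between arrays may be partly technical. Each array carries its group and a number from its label: CKO 1, CKO 4, CKO 34 and CKO 43, and WT 6, WT 27 and WT 38. Values are log2 signals, an array brightness that can be compared between arrays for one gene but not between genes, and differences are CKO minus WT.

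Serotonin reaches the cortex in axons from the raphe nuclei of the brainstem and acts there on several receptor families. Receptors of the Htr1 and Htr5 families couple to Gi/o proteins and lower cyclic AMP, those of the Htr2 family couple to Gq and phospholipase C, and those encoded by Htr4 and Htr7 couple to Gs and raise cyclic AMP. The Htr3 family differs from the rest in forming cation channels opened by serotonin. In the cortex Htr2a is known from pyramidal neurons, above all of layer 5, and Htr3a marks interneurons of the caudal ganglionic eminence (CGE).

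The promoter windows of the Htr2 pair are shown because Htr2a and Htr2c encode closely related receptors. Htr2a had lower signal in CKO, while Htr2c was dim in both groups, where a difference may be missed. They are RefSeq windows of build GRCm38.p6, 250 bases before to 50 after the start of the gene, read on the gene's strand. The Htr2a window is chr14:74640624-74640923 (plus strand) and the Htr2c window is chrX:146962263-146962562 (plus strand). Capitals mark AGGTCA or its reverse complement TGACCT, the half-site that COUP-TF proteins and many other nuclear receptors bind.
Htr2a: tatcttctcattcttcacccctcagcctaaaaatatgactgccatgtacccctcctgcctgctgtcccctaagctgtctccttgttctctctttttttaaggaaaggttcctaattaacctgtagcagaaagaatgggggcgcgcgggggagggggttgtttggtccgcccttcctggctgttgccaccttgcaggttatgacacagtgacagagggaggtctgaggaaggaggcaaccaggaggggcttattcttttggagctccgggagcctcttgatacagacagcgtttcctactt
Htr2c: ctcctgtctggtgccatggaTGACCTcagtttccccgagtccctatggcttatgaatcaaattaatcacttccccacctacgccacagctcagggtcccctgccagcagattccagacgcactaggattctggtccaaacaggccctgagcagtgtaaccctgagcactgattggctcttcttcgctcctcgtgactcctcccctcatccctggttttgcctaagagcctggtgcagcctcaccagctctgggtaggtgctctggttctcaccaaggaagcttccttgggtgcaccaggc
The half-site was absent from the Htr2a window and occurred 1 time in the Htr2c window. Windows were held for 8 members, 9 windows in all, and 1 of the 9 had the half-site on either strand, against 16.3% of 32851 windows of the same length over all genes. Htr3a and Htr4 had no window in the table. These matches describe letters in a short window and carry no information on binding.

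Htr2a and Htr3a had lower signal in CKO than in WT neocortex, at 0.678 and 0.662 of the WT signal, and the differences of the other 8 receptor genes lay between -0.05 and 0.07. In Htr2a the step between the groups was larger than the spread within either of them, and in Htr3a it rested largely on WT arrays that differed widely among themselves. With bulk tissue, fewer cells that carry a receptor and less of its RNA per cell cannot be told apart.

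Htr2a (probe set 10416406), the Gq-coupled receptor of cortical pyramidal neurons, was at 8.43 on CKO 1, 8.32 on CKO 4, 8.47 on CKO 34 and 8.42 on CKO 43, against 8.82 on WT 6, 8.99 on WT 27 and 9.11 on WT 38. The 4 CKO arrays lay within 0.14 of each other, and the gap of 0.35 between the highest of them and the lowest WT array exceeded the 0.29 range of the WT arrays. The means were 8.41 ± 0.062 in CKO (SD, n = 4) and 8.97 ± 0.148 in WT (SD, n = 3). The log2 difference was -0.56 (limma SE 0.070), 5.33 times the pooled SD within groups in size, and put CKO at 0.678 of WT. It was the 18th most negative difference among 16144 genes.

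Htr2c (probe set 10602261), the Gq-coupled relative of Htr2a that is abundant in the choroid plexus, was dim in both groups. Its CKO arrays ran from 6.27 on CKO 34 to 6.62 on CKO 1, and its WT arrays from 6.46 to 6.50, inside the CKO range. The log2 difference was -0.02 (SE 0.075). Of 10 choroid plexus marker genes 8 were tested, and their average relative to all 7 arrays was also highest on CKO 1. It was 0.28 there, -0.09 to -0.02 for the rest of CKO, and -0.16 to 0.13 in WT. Ttr, the choroid plexus transthyretin gene, was at 8.36 on CKO 1 and 8.10 on WT 38, while the other 5 arrays lay between 6.96 and 7.32. The part of choroid plexus tissue in the Htr2c values was not tested.

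Htr3a (probe set 10593233), the obligatory subunit of the serotonin-gated channel, was at 7.63 on CKO 1, 7.62 on CKO 4, 7.51 on CKO 34 and 7.85 on CKO 43, against 8.24 on WT 6, 8.65 on WT 27 and 7.85 on WT 38. WT 27 was high and WT 38 lay only 0.0037 above CKO 43, so the groups met without crossing. The means were 7.65 ± 0.141 in CKO (SD, n = 4) and 8.25 ± 0.399 in WT (SD, n = 3). The log2 difference was -0.60 (SE 0.166), 2.16 times the pooled SD in size, and put CKO at 0.662 of WT. Without WT 27 the difference was -0.39, a change of 1.51 times, and without WT 38 it was -0.79. It was the 15th most negative difference of all genes tested.

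**Figure D1:**
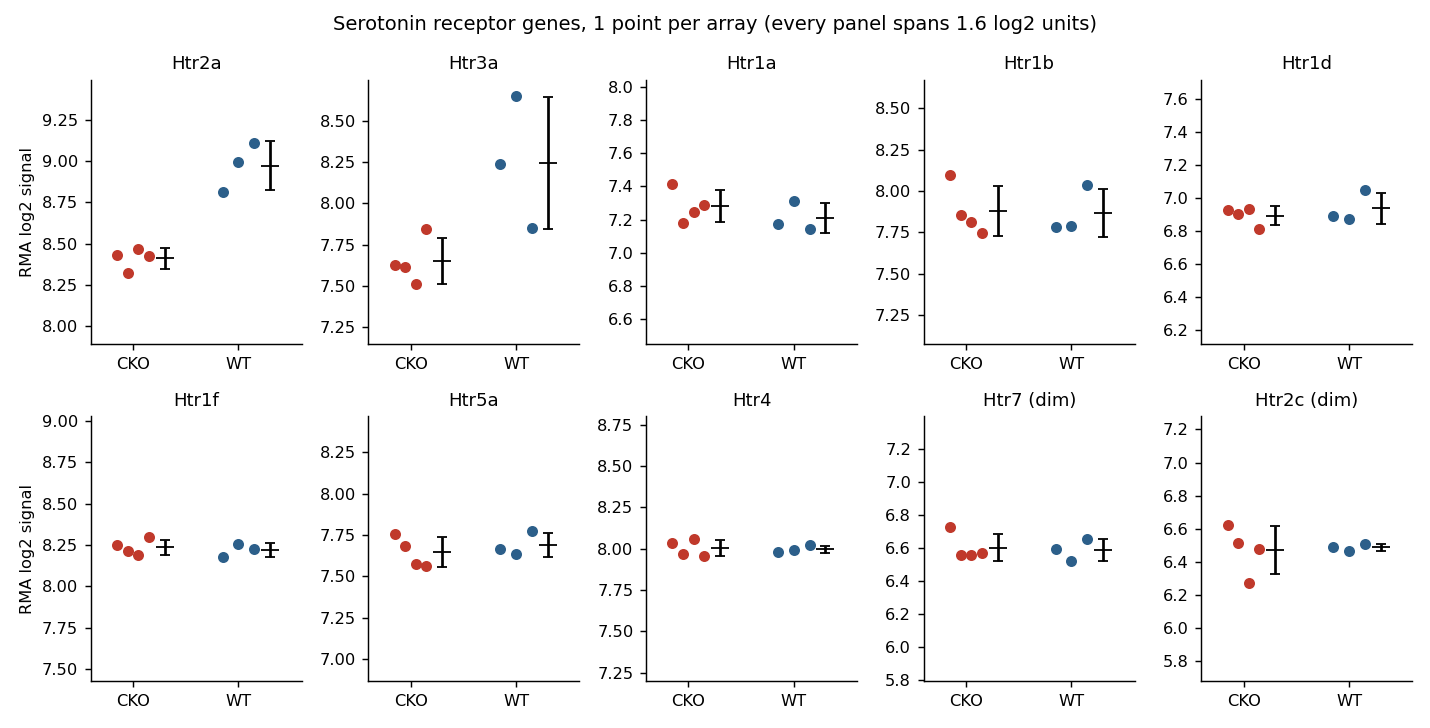
RMA log2 signal (vertical axes) of each receptor gene on the 4 CKO arrays (red, left) and 3 WT arrays (blue, right), with mean and SD as black bars. Each panel spans 1.6 log2 units, and in Htr2a the CKO points lie clear of the WT points while in Htr3a CKO 43 and WT 38 meet at 7.85.

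Among the Gi/o-coupled receptors the groups overlapped for all 5 genes. Htr1a (probe set 10407034), an inhibitory receptor of pyramidal neurons, averaged 7.28 ± 0.0998 in CKO (SD, n = 4) and 7.21 ± 0.090 in WT (SD, n = 3), a difference of 0.07 (SE 0.066). Htr1b (probe set 10595324), a presynaptic receptor on axon terminals, averaged 7.88 ± 0.152 in CKO (SD, n = 4) and 7.87 ± 0.147 in WT (SD, n = 3). Its 2 highest arrays came from different groups, CKO 1 at 8.10 and WT 38 at 8.04, and the other 5 arrays lay between 7.75 and 7.85. Htr1d (probe set 10509238), a close relative of Htr1b, ran from 6.81 to 6.93 in CKO and from 6.88 to 7.05 in WT, a difference of -0.04 (SE 0.055). Htr1f (probe set 10440302), another member of the Htr1 family, stayed between 8.19 and 8.30 in CKO and between 8.18 and 8.26 in WT. Its difference was 0.02 (SE 0.042).

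Htr5a (probe set 10520355), also coupled to Gi/o, averaged 7.64 ± 0.091 in CKO (SD, n = 4) and 7.69 ± 0.072 in WT (SD, n = 3), a difference of -0.05 (SE 0.059). CKO 1 at 7.75 and CKO 4 at 7.68 lay among the WT arrays, which ran from 7.64 to 7.77, while CKO 34 at 7.58 and CKO 43 at 7.56 lay below them. The Gs-coupled Htr4 (probe set 10456161) had the smallest spread of the members within groups, with 7.95 to 8.06 in CKO and 7.98 to 8.02 in WT, and differed by 0.01 (SE 0.041). Htr7 (probe set 10467182), the other Gs-coupled member, was dim, with 6.55 to 6.73 in CKO and 6.52 to 6.65 in WT, and differed by 0.01 (SE 0.057).

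The 6 members above the percentile other than Htr2a and Htr3a had differences between -0.05 and 0.07, with a median of 0.01 and SEs from 0.041 to 0.095. Of all 8 above the percentile 4 were higher and 4 lower in CKO, with a median of -0.02, beside a median of 0.01 over the 16144 genes tested, of which 9504 were higher and 6640 lower. Every CKO array lay below every WT array in 2 of the 8, the 2 genes for which the family was chosen, and in 2.99% of all genes. None of the 8 had every CKO array above every WT array, which held for 5.39% of all genes. No member was among the 4 genes (0.0248% of 16144) past an adjusted p of 0.05 with limma and Benjamini-Hochberg adjustment. Since the comparison chose the members, nothing is read from these counts.

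**Figure D2:**
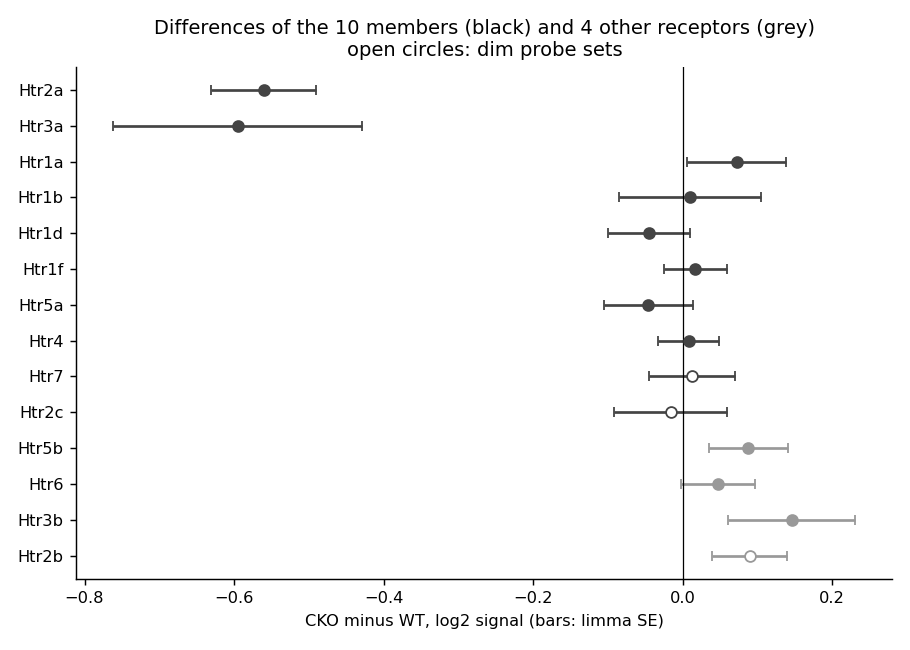
CKO minus WT difference in log2 signal (horizontal axis) with limma's SE for the 10 members (black) and 4 further receptor genes (grey), dim probe sets as open circles. Htr2a at -0.56 and Htr3a at -0.60 stand apart from the other 12 genes, which lie between -0.05 and 0.15.

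**Figure D3:**
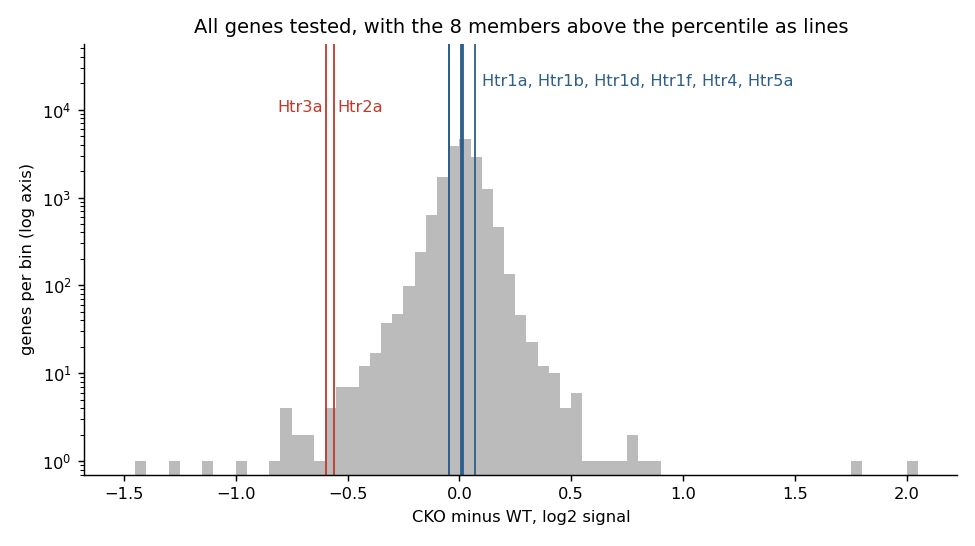
Number of genes (vertical log axis) by CKO minus WT difference in log2 signal (horizontal axis) for 16144 genes, with the 8 members above the percentile as lines. Htr2a and Htr3a (red) lie in the lower tail, at the 18th and 15th most negative places, and the other 6 (blue) lie near 0.

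The highest array of each group was counted over the members. CKO 1 was the highest CKO array for 5 of the 10 members, and WT 38 was the highest WT array for 7 of them. The shares of all genes with these arrays highest were not counted, so nothing about the members is read from the counts. For both Htr3a and Htr1f the highest CKO array was CKO 43 and the highest WT array was WT 27. Over the 7 arrays, after the group means were taken off, Htr2a and Htr3a had a Pearson r of -0.32, so within groups a high value of one did not go with a high value of the other. The 7 values share their arrays and their normalization, and the r is given as a description.

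The genes whose log2 signal followed Htr2a most closely over the 7 arrays were Tenm3 (r = 0.981), a teneurin adhesion protein, Chrna7 (r = 0.980), a nicotinic acetylcholine receptor subunit, Kcnab1 (r = 0.977), a potassium channel subunit, and Tenm1 (r = 0.976), another teneurin. They were the highest of 16133 candidates, so the size of r is partly a product of the search, and it includes the step between the groups. Chrna7 was at 10.08, 10.10, 10.15 and 10.14 on CKO 1, CKO 4, CKO 34 and CKO 43, against 10.35, 10.45 and 10.44 on WT 6, WT 27 and WT 38. For Htr3a the closest were Tubd1 (r = 0.964), Zfp605 (r = 0.962), Wdr54 (r = 0.953) and Lifr (r = 0.948), a cytokine receptor. Lifr was at 9.27 on WT 6, 9.37 on WT 27 and 9.09 on WT 38, and thus shared with Htr3a the low value of WT 38, and its CKO arrays lay between 9.01 and 9.09.

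With the group means taken off, the closest to Htr2a were Caskin1 (r = 0.998), a synaptic scaffold protein, Ntm (r = 0.995), an adhesion protein of neurons, Srsf5 (r = 0.993), a splicing factor, and Gm4750 (r = 0.992). The closest to Htr3a were then Impdh1 (r = 0.998), an enzyme of guanine nucleotide synthesis, St6galnac4 (r = 0.994), a sialyltransferase, Tonsl (r = 0.992), a DNA repair protein, and Scand1 (r = 0.990). No gene was shared between the lists of 4 made with and without the group means, for either receptor.

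The 4 further serotonin receptor genes, which were listed with earlier results of these data known, had small positive differences, from 0.05 to 0.15. Htr6, a Gs-coupled receptor, averaged 8.15 in CKO and 8.11 in WT, a difference of 0.05 (SE 0.050, limma adjusted p 0.826). Htr5b, a pseudogene in humans and intact in the mouse, differed by 0.09 (SE 0.053, limma adjusted p 0.744). Htr3b, the second subunit of the serotonin-gated channel, differed by 0.15 (SE 0.085, limma adjusted p 0.740). Its mean of 7.00 lay near the dim limit of 6.84, and its groups overlapped. Htr2b, the third Gq-coupled receptor, was dim, at a mean of 6.46 in CKO and 6.37 in WT.

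No gene of serotonin supply or signalling passed the test, nor did any of these further receptors that was tested. Of 63 pathway genes listed, these 4 receptors included, 57 had a probe set of their own and 51 lay above the percentile, of which 27 were higher and 24 lower in CKO, with a median of 0.01. With limma 0 of the 51 passed over all genes (smallest adjusted p 0.711). At an unadjusted p under 0.05 there were 2 higher and 2 lower, where 4.17% of all genes were higher and 2.61% lower at that level.

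Of 8 tested genes of synthesis, transport and breakdown, 4 were higher and 4 lower. Tph2, the enzyme that makes serotonin in raphe neurons, was dim, with 6.39 in CKO and 6.35 in WT. Slc6a4, the serotonin transporter, averaged 7.41 in CKO and 7.43 in WT, a difference of -0.02 (SE 0.069, limma adjusted p 0.970). The monoamine oxidase genes differed by -0.06 (Maoa, SE 0.069) and -0.01 (Maob, SE 0.044), and the decarboxylase gene Ddc by 0.02 (SE 0.070). Qdpr, an enzyme that regenerates the cofactor of serotonin synthesis, differed by -0.12 (SE 0.053, limma adjusted p 0.726).

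Slc18a2, the vesicular transporter that loads serotonin and other monoamines, had the widest scatter of this list. It was at 8.995 on CKO 1, 7.54 on CKO 4, 9.15 on CKO 34 and 9.25 on CKO 43, against 8.02 on WT 6, 7.10 on WT 27 and 8.38 on WT 38. CKO 4 lay below 2 of the WT arrays, and the difference of 0.90 (SE 0.446) had a limma adjusted p of 0.727.

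Effectors of the receptors had no call either. Of 8 Gi/o and potassium channel effectors 4 were higher and 4 lower. Kcnj3, a subunit of the potassium channel that Htr1a opens, differed by -0.16 (SE 0.064, limma adjusted p 0.723), and Gnai2, a Gi subunit, by 0.07 (SE 0.043, limma adjusted p 0.752). The 8 Gq effectors, downstream of Htr2a, all lay between -0.06 and 0.04, with Gnaq, the Gq subunit, at 0.01 (SE 0.046) and Plcb1, a phospholipase C, at 0.02 (SE 0.039). The phospholipase genes Plcb4 (0.04, SE 0.036) and Plcb3 (0.03, SE 0.040) had the smallest p-values of that list. Of 10 Gs effectors 4 were higher and 6 lower, and Gnal, the Gs-like subunit of striatal and olfactory neurons, differed by 0.42 (SE 0.118, limma adjusted p 0.711). Adcy6, an adenylyl cyclase, differed by 0.09 (SE 0.070).

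Of 14 partner proteins and regulators tested 7 were higher and 7 lower. S100a10, an annexin partner that binds Htr1b and Htr4 receptors, averaged 10.79 in CKO and 10.27 in WT. Its difference of 0.51 (SE 0.202, limma adjusted p 0.723) came with a WT 27 value of 9.74, against 10.48 and 10.60 on the other WT arrays. Rgs4, a brake on Gi/o and Gq signals, differed by -0.29 (SE 0.114, limma adjusted p 0.723). Ric3, a chaperone of the Htr3a channel, differed by -0.11 (SE 0.068), and Adarb1, which edits Htr2c transcripts, by -0.03 (SE 0.051). The scaffold genes Dlg4 (0.06, SE 0.078) and Mpdz (0.02, SE 0.048), whose proteins bind Htr2 receptors, had small positive differences.

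Marker lists of the cells that carry these receptors, and of neighbouring tissue, are given as the mean of their genes on each array relative to the mean of the 7 arrays. For CGE-derived interneurons, the class that Htr3a marks, the 11 tested genes of 13 averaged -0.09 to 0.11 on CKO arrays and 0.04 to 0.05 on WT arrays, with 5 higher and 6 lower in CKO and 0 past the limma threshold. The CKO arrays other than CKO 1 lay between -0.09 and -0.07. The median difference of the list was -0.07, and the large negative differences of Npy and Cck weigh on these averages. Of this list Vip and Lamp5 were dim. Npy, the neuropeptide Y gene, lay below WT on all CKO arrays, with 9.83 to 10.09 in CKO and 10.44 to 10.54 in WT (difference -0.51, SE 0.064, limma adjusted p 0.100). Cck, the cholecystokinin gene, was at 8.86 to 9.12 in CKO, against 9.55 on WT 6, 9.47 on WT 27 and 9.12 on WT 38 (difference -0.38, SE 0.109, limma adjusted p 0.711). Reln (-0.07, SE 0.054), which is also on the Cajal-Retzius list, and Cnr1 (-0.07, SE 0.048) were the next by p-value. These genes were named for small p-values and all were lower in CKO. The 5 higher genes of the list differed by up to 0.13, among them Calb2 by 0.07 (SE 0.133) and Adarb2 by 0.04 (SE 0.047).

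The 7 tested of 8 markers of interneurons from the medial ganglionic eminence averaged -0.08 to 0.08 in CKO and -0.00 to 0.04 in WT. The 8 Cajal-Retzius markers, cells that also express Htr3a in the young cortex, averaged -0.11 to 0.15 in CKO and -0.10 to 0.09 in WT. The 7 tested of 9 general GABAergic markers, with Dlx1, Dlx2, Dlx5 and Dlx6 among them, were all higher in CKO, at a median of 0.31. Of them 0 were past the limma threshold and 2 were at an unadjusted limma p under 0.05. The list averaged -0.28 on CKO 4, 0.21 to 0.31 on CKO 1, CKO 34 and CKO 43, and -0.37 to -0.03 in WT. Htr3a was highest on WT 27, where that GABAergic list was lowest. The part of these cells in the Htr3a difference was not tested.

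For Htr2a, the 10 tested of 11 layer 5 markers averaged -0.19 on CKO 4, -0.10 on CKO 43, -0.02 on CKO 34 and 0.06 on CKO 1. They averaged 0.05 to 0.10 on WT arrays. The median difference of this list was 0.01, with 5 higher and 5 lower in CKO, so its averages lean on the 2 neurofilament genes named next. Within it the neurofilament genes Nefm (-0.77, SE 0.130, limma adjusted p 0.301) and Nefl (-0.98, SE 0.274, limma adjusted p 0.711) lay below WT on all CKO arrays, while Bcl11b, a transcription factor of subcerebral neurons, lay above (0.15, SE 0.040, limma adjusted p 0.695). The 10 upper-layer markers averaged -0.08 to 0.05 in CKO and -0.04 to 0.06 in WT. The 11 layer 6 and subplate markers averaged 0.00 to 0.03 in CKO and -0.10 to 0.05 in WT. Of them 6 were higher and 5 lower in CKO, 3 and 3 at an unadjusted p under 0.05, and 1 passed over all genes: Syt6, a synaptotagmin, rose by 0.67 (SE 0.041, limma adjusted p 0.0022). Ntsr1, a neurotensin receptor of corticothalamic neurons, lay below WT on all CKO arrays (-0.47, SE 0.114, limma adjusted p 0.655). Hs3st4, a heparan sulfate enzyme, lay above WT on all CKO arrays (0.20, SE 0.065, limma adjusted p 0.711), and the groups overlapped for Nxph4, a neurexophilin (0.40, SE 0.130, limma adjusted p 0.711). The 6 tested of 9 markers of neocortical projection neurons all lay above the percentile and averaged -0.05 to 0.07 in CKO and -0.08 to 0.11 in WT. The part of these cells in the Htr2a difference was not tested.

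Markers of neighbouring tissue moved with the groups in some lists. The 9 tested of 12 striatal markers were all higher in CKO (0 past the limma threshold, 5 at an unadjusted p under 0.05), at -0.06 on CKO 4, 0.12 to 0.34 on CKO 1, CKO 34 and CKO 43, and -0.32 to -0.11 in WT, where WT 27 was lowest. Slc18a2, S100a10 and the striatal list were thus all lowest on WT 27, and what striatal tissue contributed to the values of pathway genes was not tested. Meningeal and vessel markers (7 tested of 8) averaged -0.02 to 0.15 in CKO and -0.11 to -0.06 in WT. Thalamic markers (8 tested of 8) averaged -0.03 to 0.07 in CKO and -0.07 to 0.01 in WT. Hippocampal markers (6 tested of 8) averaged -0.12 to 0.10 in CKO and -0.07 to 0.09 in WT. Markers of serotonergic raphe neurons (5 tested of 7) averaged -0.10 to 0.07 in CKO and -0.05 to 0.02 in WT. Red blood cell markers (3 tested of 5) were at -0.62 on WT 38, against -0.09 to 0.37 in CKO and -0.04 to 0.12 on the other WT arrays.

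**Figure D4:**
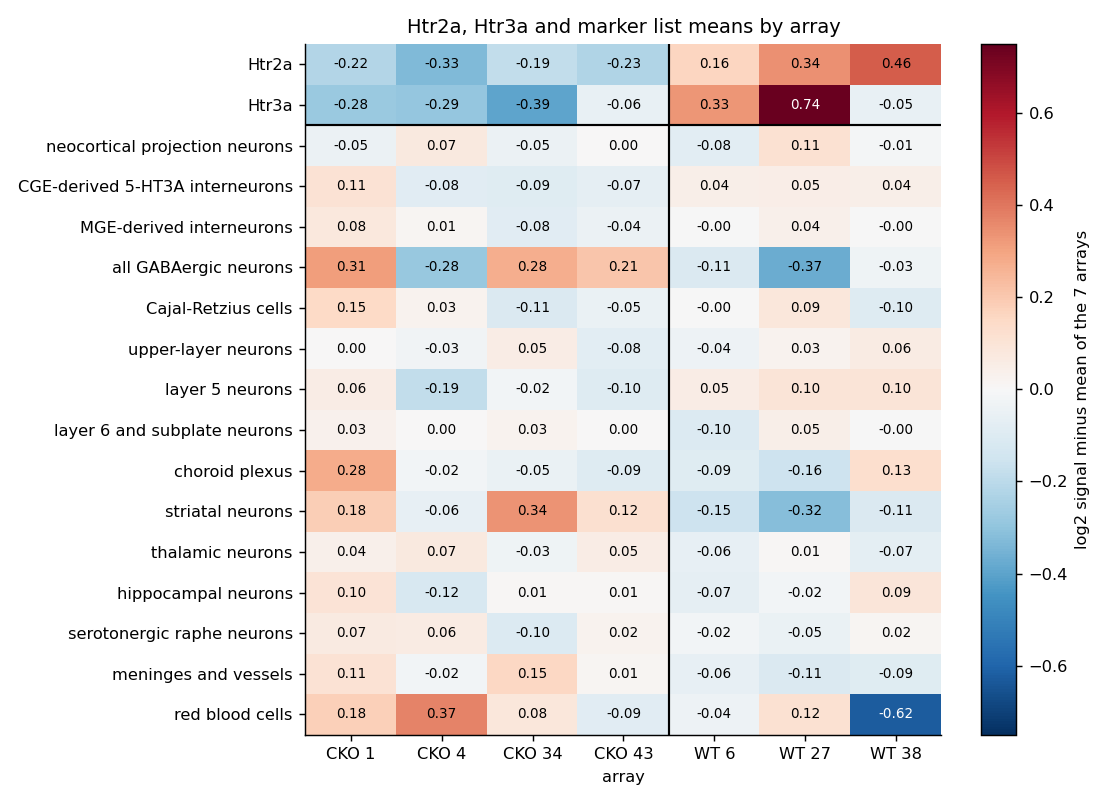
Log2 signal minus the mean of the 7 arrays (colour and printed value) for Htr2a, Htr3a and 15 marker lists (rows) on the 4 CKO arrays (left of the line) and 3 WT arrays (right). Htr2a is below its mean on all CKO arrays and above it on all WT arrays, and Htr3a is at -0.05 on WT 38 and 0.74 on WT 27. The GABAergic and striatal lists are lowest on WT 27.

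The targeted gene was checked once. Nr2f1 averaged 10.68 ± 0.084 in CKO (SD, n = 4) and 11.04 ± 0.143 in WT (SD, n = 3), a difference of -0.36 (SE 0.074, limma adjusted p 0.435), and Neurod6 at the driver locus differed by -0.20 (SE 0.057, limma adjusted p 0.711). The position of the Nr2f1 probe set relative to the deletion is unknown, and its signal does not check the labels. The identifiers of the arrays fell into 3 sets by their leading digits: CKO 1 and CKO 4; CKO 34, CKO 43, WT 27 and WT 38; and WT 6. What these sets stand for is not given. Within the set of 2 CKO and 2 WT arrays the difference was -0.61 (SE 0.060) for Htr2a and -0.57 (SE 0.299) for Htr3a. Over the 5 arrays outside the set of CKO arrays alone, it was -0.53 (SE 0.091) for Htr2a and -0.57 (SE 0.231) for Htr3a.

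**Figure D5:**
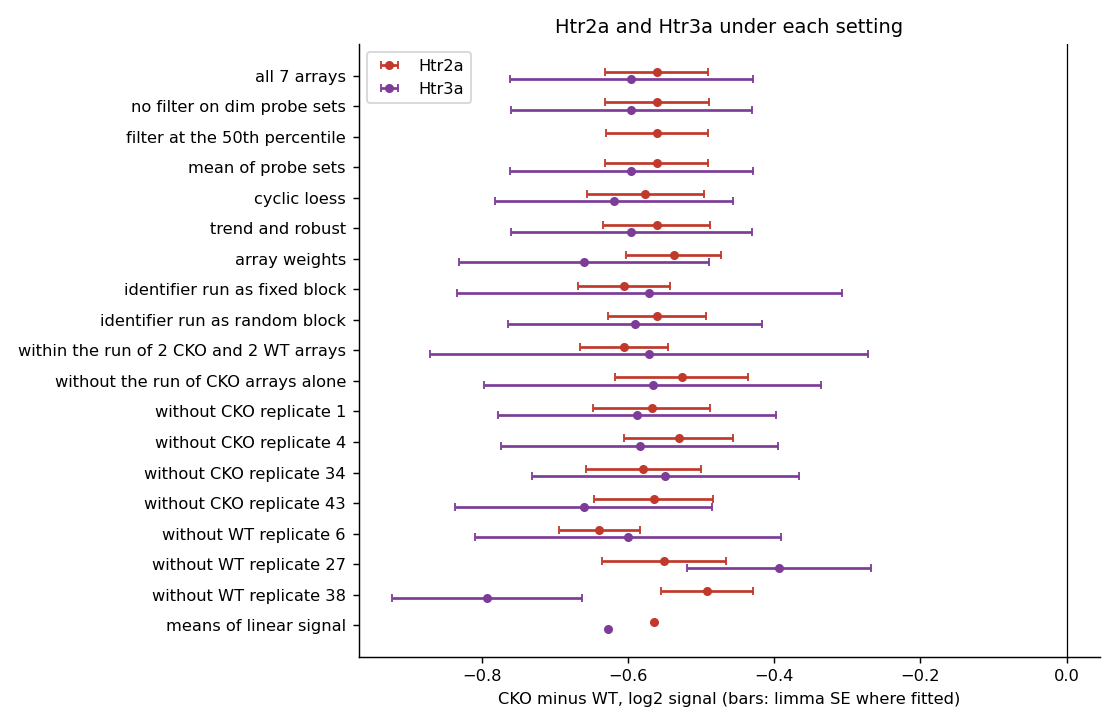
CKO minus WT difference in log2 signal (horizontal axis) of Htr2a (red) and Htr3a (purple) with limma's SE under each setting (rows). Htr2a stays between -0.64 and -0.49, and Htr3a ranges from -0.79 without WT 38 to -0.39 without WT 27; it is missing where the stricter filter removed it.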

How the data were processed

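Total RNA of 7 samples was labelled with biotin and hybridised to 1 Affymetrix array each. The deposited values are log2 signals, for which the submitters' processing notes name RMA and Affymetrix Expression Console. The genome build was not given in the sources used here. All array medians were 8.23, and the number of arrays limits the precision. RMA fits each probe set over all arrays and makes their distributions equal, which hides a global shift.

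Of 35468 probe sets, 21786 had 1 gene symbol. Those with a mean below the 25th percentile were left out, and the brightest stood for each gene, which left 16144 genes. CKO and WT were compared with limma 3.58.1 (lmFit, eBayes) in R 4.3.3, without covariates, with Benjamini-Hochberg adjustment over all genes at 0.05. The fit was tested on simulated data. Differences of dim genes came from a fit without the filter. Figures were drawn with matplotlib 3.10.9.

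Members and the 6 pathway and 15 marker lists were chosen with earlier results of these data known. Named genes were all members, Nr2f1, Neurod6, other receptors, 10 preset pathway genes, those past 0.05 or with the 2 smallest p per pathway list, up to 4 per marker list, and the 4 closest in pattern to Htr2a and Htr3a. Not all genes that the rule took from marker lists are described; those of neighbouring tissue are given by list. Ttr, Vip, Lamp5, Gnaq and Plcb1 were named after their values were seen. Alternatives were the filter, probe set averaging, cyclic loess, the variance model, array weights, array identifier sets and leaving out each array.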

Additional observations from a re-analysis of the deposited data

Results flagged for a closer look

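Htr7 in CKO had 1 array apart from the rest: CKO 1 was at 6.73 and the other 3 lay between 6.55 and 6.57, so that the gap took up 0.919 of the range, above Dixon's limit for 4 samples. It was 1 of 16 genes looked at in this way, chance gives about 1 in 20, and the probe set was dim. Groups of 3 were not looked at.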

How the results depend on the processing

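Htr2a and Htr3a, which were chosen for lower CKO signal on these arrays, stayed lower in CKO under every alternative run. Each member had 1 probe set, so the filter, probe set averaging and the variance model could not change its difference. These settings are still among the alternatives counted below. Leaving out each array gave -0.64 to -0.49 for Htr2a and -0.79 to -0.39 for Htr3a, and the other alternatives gave -0.61 to -0.53 and -0.66 to -0.57. Of 126 alternative values for the other 8 members, 124 moved by less than the pooled SD. Htr5a went to -0.13 with the array identifier sets as a fixed block and within the set of 2 CKO and 2 WT arrays. These 2 alternatives give the same difference for each member, since only that set holds both groups, yet both are counted. The differences of the other 8 members were all smaller than their pooled SD, and their signs were not all stable. The sign changed in 8 of 16 alternatives for Htr1b, 6 of 16 for Htr4, 6 of 15 for Htr7 and 3 of 16 for Htr1f. It changed in 1 for Htr1d and Htr2c, and in 0 for Htr1a and Htr5a. The count of members with every CKO array below every WT array was 1 with the filter at the 50th percentile. That filter removed every member but Htr2a. The count was 3 with the identifier set of 2 CKO and 2 WT arrays, where 17.3% of all genes lay lower without overlap. It was also 3 without the set of CKO arrays alone (9.13%), against 2.99% of all genes over the 7 arrays. The count of all genes past 0.05 was 4; it was 1 with cyclic loess or array weights, 0 with the identifier sets as a fixed block or within the set of 4 arrays, 2 without the set of CKO arrays alone, and 1 to 6 when an array was left out (6 without CKO 1). Pathway genes at an unadjusted p under 0.05 numbered 4; there was 1 with the fixed block, 2 within the set of 4 arrays or without the set of CKO arrays alone, and 1 (without CKO 1) to 7 (without WT 38) when an array was left out. Of all genes at an unadjusted p under 0.05, 61.5% were higher in CKO over the 7 arrays, against 49.9% with cyclic loess, 47.8% with array weights, 36.7% with the fixed block, 35.8% within the set of 4 arrays and 39.9% without the set of CKO arrays alone. The causes were not tested. No paired analysis was possible because no replicate number is shared between the groups.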
